A study of Mus musculus with 17 samples.

Results

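Car4, Tmigd1, Mal and Epcam are 4 of the 988 genes read by a targeted immuno-oncology panel in mouse colon. They were chosen by their gene symbols, with earlier results of these data known. Their p-values therefore do not come from a choice made before the data were seen. The first 3 are listed as genes of differentiated colonocytes, the absorptive cells that line the upper crypt and surface of the large intestine, and Epcam as a gene of epithelium in general. Levels were followed across 17 libraries of bulk colon tissue from mice given azoxymethane (AOM), a carcinogen used to raise colon tumors in rodents, by intraperitoneal injection. All groups received AOM, and no untreated tissue was analysed here. The Kit-B6 mice were C57BL/6. The Kit-W/sh mice were W-SASH, which carry an inversion upstream of Kit, the stem cell factor receptor that mast cells need, and are short of mast cells as adults. Tumors were taken at postnatal week 32, after 6 injections over 6 weeks and a further 18 weeks, with 6 libraries from Kit-B6 and 6 from Kit-W/sh mice. Preneoplastic colon was taken at postnatal week 14, after 3 injections over 3 weeks and a further 3 weeks, with 3 libraries from Kit-B6 and 2 from Kit-W/sh mice. Stage, age, number of injections and tissue cannot be told apart in this design.

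Car4 encodes a carbonic anhydrase tethered to the outer face of the apical membrane, where it interconverts carbon dioxide and bicarbonate. Tmigd1 encodes a transmembrane protein with immunoglobulin domains that is found at the brush border of intestinal epithelium. Mal encodes a small membrane-spanning proteolipid of lipid rafts that takes part in transport to the apical surface of polarised epithelia, and it is also made by T lymphocytes and myelinating cells. Epcam encodes a cell adhesion protein carried by nearly all intestinal epithelial cells, from the crypt base to the surface. Colonocytes mature as they move up the crypt, and loss of mature absorptive genes is a known trait of colon adenomas.

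Total counts ran from 616009 to 1399902 per library, and between 886 and 922 genes had at least 1 count. Levels are given as CPM, edgeR's counts scaled to library size with the trimmed mean of M values (TMM). Amplicons differ in efficiency, so levels are not compared between genes. Kit itself, whose transcript reports on its level and not on the inversion, lay between 93.7 and 473 CPM in Kit-B6 tumors and between 48.9 and 258 CPM in Kit-W/sh tumors. In preneoplastic colon it lay between 268 and 521 CPM in Kit-B6 and between 113 and 127 CPM in Kit-W/sh. Cpa3, a protease of mast cells, lay between 11.3 and 256 CPM in Kit-B6 tumors. In preneoplastic colon it lay between 1.55 and 10.9 CPM in Kit-B6 and was at 0 CPM in Kit-W/sh, so Kit-B6 libraries could also be low. It was at 9.81 CPM or less in 5 of the Kit-W/sh tumors but reached 460 CPM in tumor 2, against what that library's label says. That library is therefore called the library labelled Kit-W/sh tumor 2. The edgeR changes of Car4, Tmigd1 and Mal that include it, and the correlations of Car4 with Tmigd1 and Mal over all tumors, are given with and without it. Correlations within Kit-W/sh tumors include it, since 5 libraries would be too few.

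Car4 was far lower in tumors than in preneoplastic colon. In preneoplastic Kit-B6 colon it was at 92828.4, 26009.4 and 33266.1 CPM in samples 1, 2 and 3. In preneoplastic Kit-W/sh colon it was at 60391.0 and 61530.7 CPM. In Kit-B6 tumors it ran from 180 CPM through a median of 2082.7 to 14835.0 CPM. All 6 of these tumors lay below all 3 preneoplastic samples, and tumor 4 stood well above the other Kit-B6 tumors. In Kit-W/sh tumors Car4 ran from 98.5 CPM through a median of 1227.2 to 4787.6 CPM, the last from the library labelled tumor 2. No tumor of either genotype reached the lowest preneoplastic sample. The lower level in bulk tissue can reflect fewer cells of a type or less RNA per cell, which cannot be told apart here.

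In Kit-B6 mice, Car4 was 13.1-fold lower in tumors, with a log2 fold change of -3.71 ± 1.15 (SE, 95% interval -6.14 to -1.28) and an adjusted p of 0.0176 in edgeR's quasi-likelihood test. In Kit-W/sh mice it was 39.3-fold lower, with a log2 fold change of -5.30 ± 1.26 (interval -7.97 to -2.63, edgeR adjusted p = 0.0045). The Kit-B6 call rested on preneoplastic sample 1, the highest of its group: without it the log2 fold change was -2.92 with an edgeR adjusted p of 0.0796. Without tumor 4 it was -4.92 (edgeR adjusted p = 0.00248). Without the library labelled Kit-W/sh tumor 2, the Kit-W/sh change was -6.07 (edgeR adjusted p = 0.00258).

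Tmigd1 was likewise lower in tumors of both genotypes. In preneoplastic Kit-B6 colon it was at 618, 2227.6 and 3569.5 CPM, and in preneoplastic Kit-W/sh colon at 376 and 358 CPM. In Kit-B6 tumors it ran from 24.8 CPM through a median of 48.2 to 177 CPM, and in Kit-W/sh tumors from 5.99 CPM through a median of 47.7 to 92.5 CPM. The highest tumor of all 12 lay below the lowest of the 5 preneoplastic samples, although the preneoplastic levels themselves were spread 9.98-fold. In the lowest tumor the level rested on 7 counts. Tmigd1 fell by 4.75 on the log2 scale in Kit-B6 mice, 26.8-fold, with an SE of 0.71 (interval -6.24 to -3.25) and an edgeR adjusted p of 0.00012. In Kit-W/sh mice it was 7.88-fold lower, with a log2 fold change of -2.98 ± 0.75 (interval -4.56 to -1.39, edgeR adjusted p = 0.0060), and without the library labelled tumor 2 this was -3.30. Both calls held when any 1 library was left out.

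Mal moved the other way, against its listing as a gene of differentiated colonocytes. In preneoplastic Kit-B6 colon it was at 152, 90.7 and 248 CPM, and in preneoplastic Kit-W/sh colon at 41.6 and 37.2 CPM. In Kit-B6 tumors it ran from 133 CPM through a median of 388 to 813 CPM, and in Kit-W/sh tumors from 201 CPM through a median of 301 to 551 CPM. In Kit-W/sh mice all 6 tumors lay above both preneoplastic samples, whereas in Kit-B6 mice tumor 1, at 133 CPM, fell among the preneoplastic samples and the other 5 lay above them. In Kit-W/sh mice Mal rose 8.37-fold, with a log2 fold change of 3.07 ± 0.63 (interval 1.74 to 4.39, edgeR adjusted p = 0.00176), and without the library labelled tumor 2 this was 2.86. In Kit-B6 mice it rose 2.75-fold, with a log2 fold change of 1.46 ± 0.46 (interval 0.47 to 2.44, edgeR adjusted p = 0.0203).

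The Kit-B6 rise of Mal sat close to the threshold of 0.05. Without preneoplastic sample 2 it was 1.18 with an edgeR adjusted p of 0.094, and without sample 1 it was 1.43 with an edgeR adjusted p of 0.0616. Fitted on the Kit-B6 libraries alone it was 1.45 with an edgeR adjusted p of 0.0603. Because T cells also make Mal, the T cell receptor chains Cd3e and Cd3g are given beside it. Mean Cd3e was 51.2 ± 23.2 CPM (SD, n = 6) in Kit-B6 tumors against 96.5 ± 36.7 CPM (n = 3) in preneoplastic colon. In Kit-W/sh mice it was 60.5 ± 44.9 CPM (n = 6) against 97.6 ± 7.70 CPM (n = 2). The log2 fold change of Cd3e was -0.91 ± 0.51 in Kit-B6 (edgeR adjusted p = 0.155) and -0.69 ± 0.58 in Kit-W/sh mice (edgeR adjusted p = 0.347), neither of which passed the test. For Cd3g the values were -1.003 ± 0.52 (edgeR adjusted p = 0.127) and -0.33 ± 0.60 (edgeR adjusted p = 0.679). The library labelled Kit-W/sh tumor 2 had the most Mal of the Kit-W/sh tumors and also the most Cd3e and Cd3g, at 151 and 221 CPM, against at most 51.4 and 73.6 CPM in the other 5. Kit-B6 tumors did not share that order. Tumor 1, with the least Mal at 133 CPM, had 70.3 CPM of Cd3e and 87.2 CPM of Cd3g. Tumor 5, with the most Mal at 813 CPM, had 58.4 and 69.8 CPM. The part of T cells in the level of Mal was not tested.

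Epcam was nearly level across the study. It was at 30150.8, 24694.3 and 26105.5 CPM in preneoplastic Kit-B6 colon and at 29264.1 and 27358.0 CPM in preneoplastic Kit-W/sh colon. In Kit-B6 tumors it ran from 22230.7 CPM through a median of 26719.2 to 34599.2 CPM, and in Kit-W/sh tumors from 22174.6 CPM through a median of 28556.9 to 29516.5 CPM. Tumor and preneoplastic samples overlapped in both genotypes. Its log2 fold change in tumors was 0.02 ± 0.16 (interval -0.31 to 0.36, edgeR adjusted p = 0.911) in Kit-B6 and -0.08 ± 0.18 (interval -0.46 to 0.31, edgeR adjusted p = 0.752) in Kit-W/sh mice. Both intervals exclude a change of 1 on the log2 scale, and the sign flips with the scaling in Kit-W/sh mice, to 0.17 with unscaled totals. Over the 12 tumors the highest level was 1.56 times the lowest for Epcam, 6.1 times for Mal, 29.6 times for Tmigd1 and 151 times for Car4.

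**Figure D1:**
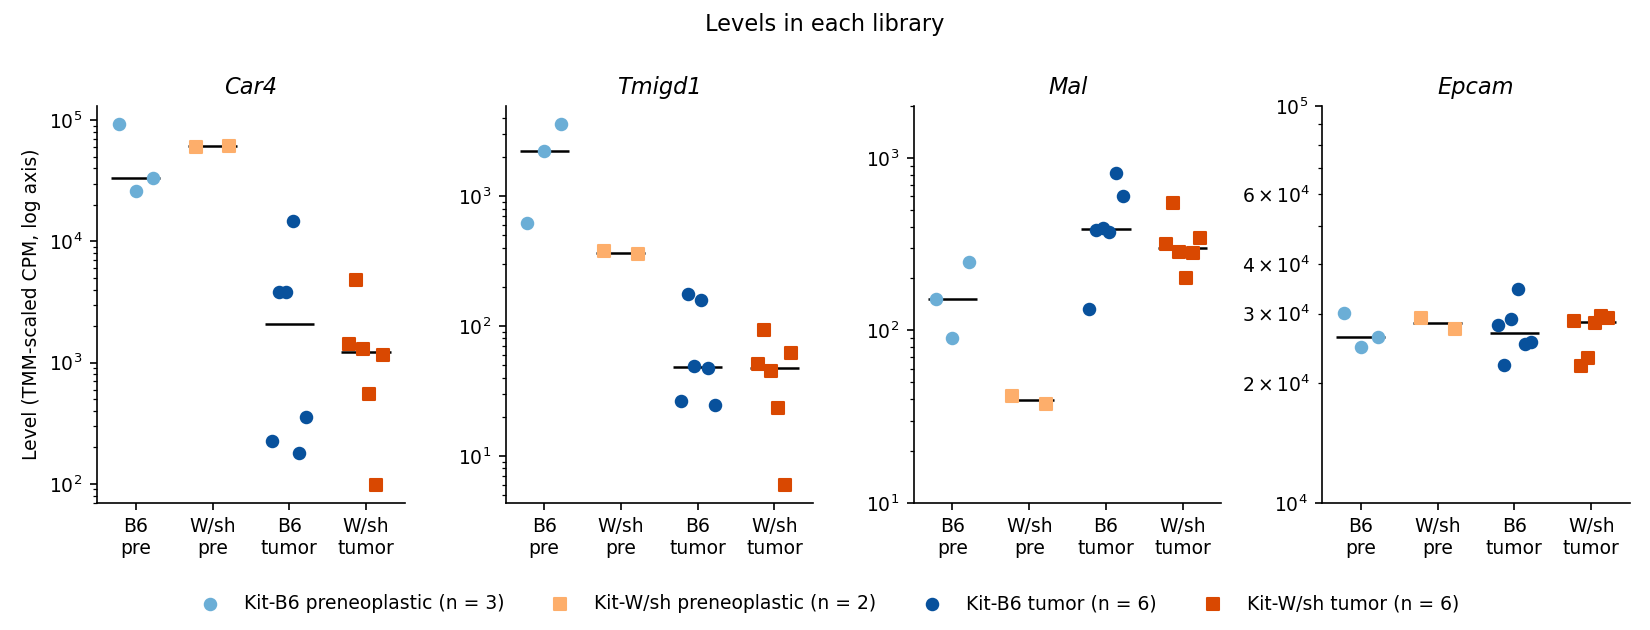
Each panel plots 1 gene, with the TMM-scaled CPM of every library on a log axis and the 4 groups along the horizontal axis. Points are libraries and black lines are group medians. Car4 and Tmigd1 sit lower in all 12 tumors than in all 5 preneoplastic samples, Mal sits higher in most tumors, and Epcam stays between 22174.6 and 34599.2 CPM throughout.

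Of the 4 genes, 2 were called lower, 1 higher and 1 neither in tumors of each genotype. Against this, edgeR called 41.1% of the 869 genes tested in Kit-B6 mice, 18.9% lower and 22.2% higher, and 39.7% in Kit-W/sh mice, 18.8% lower and 20.9% higher. Groups that did not overlap were also common, at 13.1% of genes lower in Kit-B6 mice, and at 28.7% lower and 29.6% higher in Kit-W/sh mice, where only 2 preneoplastic samples had to be cleared. A call between stages was thus common among the panel's genes, in either direction.

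**Figure D2:**
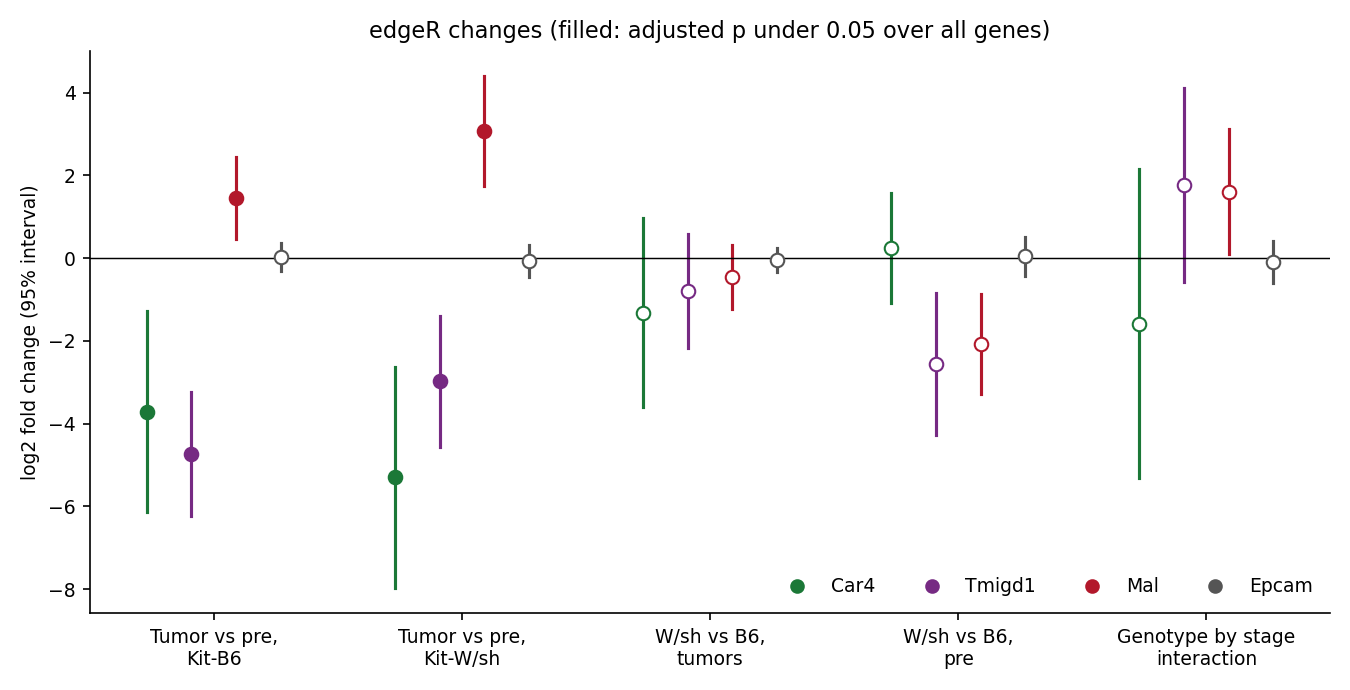
Points are log2 fold changes and bars their 95% intervals, derived from the F statistic of edgeR's quasi-likelihood test, for each of the 4 genes in each comparison. Car4 and Tmigd1 lie below 0 and Mal above 0 in both stage comparisons, and the interval of Epcam spans 0 in every comparison. Filled points passed an adjusted p of 0.05.

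The promoters of the 3 genes that moved with stage are shown because Car4 and Tmigd1 on one side and Mal on the other went in opposite directions in the same tumors. Each window is the RefSeq sequence from 250 bases before to 50 after an annotated start, in build GRCm38.p6, read 5′ to 3′ on the gene's strand. Capitals mark matches to TTTAT on either strand, the core letters of sites bound by Cdx2, a homeobox factor of intestinal epithelium. The windows are Car4 at chr11:84957504-84957803 (plus strand), Tmigd1 at chr11:76890870-76891169 for start 1 and chr11:76901909-76902208 for start 2 (both plus strand), and Mal at chr2:127656646-127656945 (minus strand).
Car4: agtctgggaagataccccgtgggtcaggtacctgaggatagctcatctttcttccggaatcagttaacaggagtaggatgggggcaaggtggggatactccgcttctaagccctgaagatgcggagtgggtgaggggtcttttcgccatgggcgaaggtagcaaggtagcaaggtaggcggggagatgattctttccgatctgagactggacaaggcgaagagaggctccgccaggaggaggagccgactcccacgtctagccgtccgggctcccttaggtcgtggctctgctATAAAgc
Tmigd1 start 1: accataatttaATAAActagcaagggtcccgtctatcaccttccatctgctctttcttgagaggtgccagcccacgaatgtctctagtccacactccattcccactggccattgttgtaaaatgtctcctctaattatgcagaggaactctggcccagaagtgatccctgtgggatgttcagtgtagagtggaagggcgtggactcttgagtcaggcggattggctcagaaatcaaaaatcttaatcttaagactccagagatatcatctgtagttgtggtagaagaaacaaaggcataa
Tmigd1 start 2: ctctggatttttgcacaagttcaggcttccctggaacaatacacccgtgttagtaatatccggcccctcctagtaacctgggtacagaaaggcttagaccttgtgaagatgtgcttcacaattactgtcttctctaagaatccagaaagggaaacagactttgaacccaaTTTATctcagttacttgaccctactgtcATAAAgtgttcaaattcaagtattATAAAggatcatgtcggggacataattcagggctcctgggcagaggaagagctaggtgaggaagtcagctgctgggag
Mal: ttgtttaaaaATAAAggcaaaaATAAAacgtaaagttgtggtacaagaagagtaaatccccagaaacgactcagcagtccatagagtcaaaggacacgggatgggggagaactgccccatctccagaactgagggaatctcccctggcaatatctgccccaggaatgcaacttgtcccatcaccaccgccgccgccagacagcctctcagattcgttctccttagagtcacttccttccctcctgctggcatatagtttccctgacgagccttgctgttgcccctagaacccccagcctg
TTTAT matched 1 time for Car4, downstream of the start, 1 time for Tmigd1 start 1, 3 times for start 2 and 2 times for Mal. The Epcam window, at chr17:87635729-87636028 on the plus strand, held 2 matches. TTTAT matched in 40.0% of 32851 mouse promoter windows of this length, so its presence in all 5 windows says little. ATCAAAG, the core of sites for Tcf and Lef factors of the Wnt pathway, matched in 3.73% of all windows, CAAAGTCCA, bound by Hnf4a, in 0.475%, and GGGTGTG, bound by Klf factors, in 7.95%. These 3 motifs, searched on both strands, were not in any of the 5 windows. A match is only a description of letters.

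Set against Epcam within each library, a ratio that needs no scaling factor, Car4 again separated the stages. The mean log2 ratio of (count + 1) of Car4 to Epcam was -4.48 ± 2.55 (SD, n = 6) in Kit-B6 tumors and 0.68 ± 0.83 (n = 3) in preneoplastic colon, a difference of -5.17 (two-sided exact permutation p = 0.0238, n = 6 and 3). In Kit-W/sh mice the difference was -5.99, with an exact permutation p of 0.0357, the smallest that 6 against 2 samples allow. The Tmigd1 ratio differed by -4.83 in Kit-B6 mice (exact permutation p = 0.0119, the smallest possible) and by -3.27 in Kit-W/sh mice (exact permutation p = 0.0357). The Mal ratio differed by 1.35 in Kit-B6 mice (exact permutation p = 0.0714) and by 3.03 in Kit-W/sh mice (exact permutation p = 0.0357). Without the library labelled Kit-W/sh tumor 2, the Kit-W/sh differences were -6.52 for Car4, -3.59 for Tmigd1 and 2.82 for Mal. The ratios of the stages did not overlap except for Mal in Kit-B6 mice. Over the 12 such tests made, none passed 0.05 after Benjamini-Hochberg adjustment of the exact permutation p-values, the lowest being 0.0857. Group sizes limit this result. The exact permutation p cannot fall below 0.1 between preneoplastic genotypes, so those tests could not pass. For the Kit-W/sh stages all 3 genes were already at the smallest possible value.

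Between genotypes, none of the 4 genes passed the test in tumors. The log2 fold change of Kit-W/sh against Kit-B6 tumors was -1.32 ± 1.06 for Car4 (interval -3.61 to 0.96, edgeR adjusted p = 0.592), -0.80 ± 0.64 for Tmigd1 (interval -2.17 to 0.57) and -0.46 ± 0.36 for Mal (interval -1.23 to 0.32). For Epcam it was -0.04 ± 0.13, with an interval of -0.33 to 0.24. The Epcam interval is narrow, whereas that of Car4 spans a large decrease and a smaller increase. edgeR called 0 of the 4 genes and 0% of the 799 genes tested in tumors, with 0 of 4 below an unadjusted p of 0.05 against 13.6% of all genes, and DESeq2 also called 0 of the 4. The size of the Car4 difference depended on single libraries, at -0.18 without Kit-B6 tumor 4 and -2.12 without the library labelled Kit-W/sh tumor 2. Without that Kit-W/sh library the difference was -1.13 for Tmigd1 and -0.68 for Mal, and neither was called. The ratio of Car4 to Epcam differed by -0.40 between genotypes (exact permutation p = 0.768, n = 6 and 6), and by -0.93 without that library.

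In preneoplastic colon, Tmigd1 and Mal were lower in both Kit-W/sh samples than in any of the 3 from Kit-B6 mice. The log2 fold change of Tmigd1 was -2.57 ± 0.71 (interval -4.28 to -0.85), with an unadjusted p of 0.0102 and an edgeR adjusted p of 0.313. For Mal it was -2.08 ± 0.50 (interval -3.29 to -0.87), with an unadjusted p of 0.00533 and an edgeR adjusted p of 0.253. These differences did not pass the adjustment over 777 genes. edgeR called 0 of the 4 genes against 0.129% of all genes, and 2 of the 4 were below an unadjusted p of 0.05 against 10.7%. DESeq2 called both, with adjusted p-values of 0.00182 for Tmigd1 and 0.00816 for Mal. Without Kit-B6 preneoplastic sample 1, whose Tmigd1 was lowest of its group and so nearest to Kit-W/sh, edgeR's adjusted p for Tmigd1 was 0.00597. Mal was not called there. edgeR called neither gene without Kit-B6 sample 2, without Kit-B6 sample 3, or with all 17 libraries in 1 fit. Leaving out 1 library, Tmigd1 ran from -3.01 to -2.01 and Mal from -2.37 to -1.68. Groups that did not overlap, lower in Kit-W/sh, made up 13.4% of genes tested.

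Car4 and Epcam did not share that order. Car4 differed between preneoplastic genotypes by 0.24 ± 0.55 (interval -1.09 to 1.57, edgeR adjusted p = 0.904), with the highest and the lowest sample both Kit-B6, and Epcam by 0.05 ± 0.20 (edgeR adjusted p = 0.947). Within preneoplastic Kit-B6 colon, sample 1 had the most Car4 and the least Tmigd1. Emp1, a membrane protein on the same colonocyte list, was at 1145.9, 8266.5 and 15229.6 CPM in the 3 Kit-B6 samples, the order of Tmigd1, and at 1555.4 and 1403.7 CPM in Kit-W/sh. The summed level of 9 leukocyte markers was 724 to 2775.5 CPM in preneoplastic Kit-B6 and 742 to 749 CPM in preneoplastic Kit-W/sh colon. Whether leukocyte content plays a part in these differences was not tested.

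The stage change was not shown to differ between genotypes for any of the 4 genes. The difference of the log2 fold changes, Kit-W/sh minus Kit-B6, was -1.59 ± 1.77 for Car4 (edgeR adjusted p = 0.862), 1.77 ± 1.11 for Tmigd1 (edgeR adjusted p = 0.766) and -0.10 ± 0.24 for Epcam (edgeR adjusted p = 0.959). For Mal it was 1.61 ± 0.71 (interval 0.10 to 3.11), with an unadjusted p of 0.0378 and an edgeR adjusted p of 0.66. edgeR called 0 of the 4 genes and 0% of 869 genes, 1 of the 4 was below an unadjusted p of 0.05 against 7.25% of all genes, and DESeq2 called 0 of the 4. Without the library labelled Kit-W/sh tumor 2 the difference was -2.37 for Car4, 1.44 for Tmigd1 and 1.40 for Mal.

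Among the 12 tumors, Car4 and Tmigd1 varied together. Their log2 levels had a Pearson r of 0.847 (permutation p = 0.00047, adjusted over 6 pairs 0.00282) and a Spearman rho of 0.825 (permutation p = 0.00156, adjusted 0.00936). Without Kit-B6 tumor 4 and Kit-W/sh tumor 5, the tumors farthest from the median of Car4, r was 0.726, and without the library labelled Kit-W/sh tumor 2 alone it was 0.837. Within Kit-B6 tumors r was 0.81 (exact permutation p = 0.114, n = 6) and within Kit-W/sh tumors 0.976 (exact permutation p = 0.0139, n = 6). The other 5 pairs had adjusted permutation p-values of 0.628 or more for r and 0.559 or more for rho. Car4 and Mal had an r of 0.166, which was 0.0812 without the library labelled Kit-W/sh tumor 2, with -0.05 within Kit-B6 and 0.657 within Kit-W/sh tumors.

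**Figure D3:**
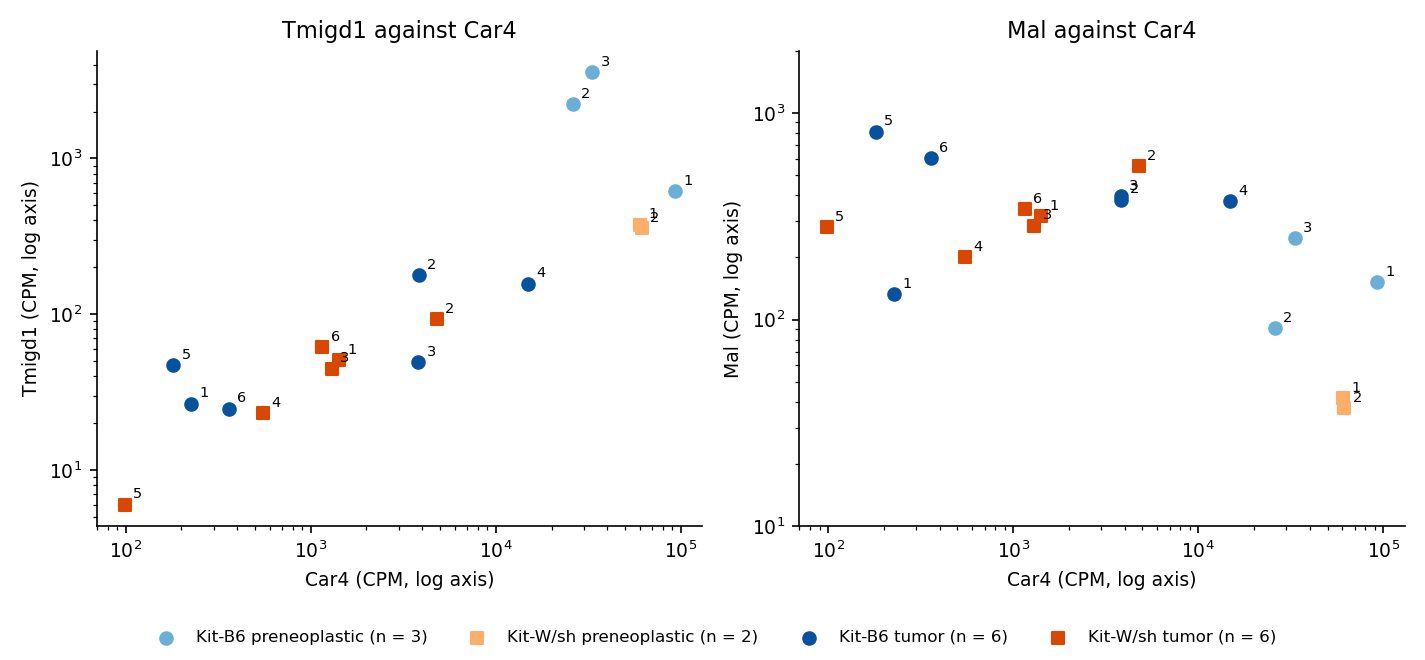
Each point is a library, numbered as in the labels, with Car4 on the horizontal axis and Tmigd1 (left) or Mal (right) on the vertical axis, all in TMM-scaled CPM on log axes. Among tumors Tmigd1 runs with Car4 (r = 0.847 over 12 tumors), whereas Mal shows no such trend (r = 0.166), and in preneoplastic colon the sample highest in Car4 is not the one highest in Tmigd1.

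The tumor with the most Car4, Kit-B6 tumor 4, also had the highest tumor levels of 3 of the 6 other measured colonocyte list genes, at 32981.5 CPM for Ceacam1, 4394.1 CPM for Hpgd and 1992.3 CPM for Ceacam20. Tmigd1 and Emp1 were highest in Kit-B6 tumor 2 instead, at 177 and 2882.0 CPM, and Mal in tumor 4 was 374 CPM, below its group's median of 388 CPM. It had the lowest tumor levels of Cd44, an adhesion receptor and Wnt target, at 1600.2 CPM, and of Ptprc, a marker of all leukocytes, at 85.4 CPM. Their part in its high Car4 was not tested.

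The genes most like Car4 over the 12 tumors, by Spearman rho among the 798 genes compared, were Tnfrsf11a at 0.972, Rab27a at 0.965, Fut4 and Sult1c2 at 0.951 and Thbs4 at 0.923. Those most like Tmigd1 were Ceacam18 at 0.909, Acpp and Thbs4 at 0.902, Zbtb16 at 0.888 and Gstt1 at 0.874. Thbs4 was among the 5 most alike for both. Among those most like Mal were Gata2 at 0.888, Alpl at 0.860, Abhd2 at 0.720 and Hpgd at 0.685. For Abhd2 and Hpgd the rho was lower within Kit-B6 tumors, at 0.257 and -0.09. Among those most like Epcam were Ppie at 0.839, Atf2 at 0.825, Nt5c at 0.818 and Slc30a5 at 0.804. Without the library labelled Kit-W/sh tumor 2, the rho of the genes named here lay between 0.709 and 0.973. These values are descriptions over 12 libraries that share their scaling.

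Of 35 listed genes of differentiated colonocytes, 7 were on the panel. Car4, Tmigd1 and Mal are among these 7, so the counts and medians of the list partly repeat changes given above. The others were Ceacam1, Ceacam20, Emp1 and Hpgd. In Kit-B6 tumors 5 of the 7 fell, Mal rose and Hpgd, which degrades prostaglandins, was not called, at -1.39 ± 0.64 (edgeR adjusted p = 0.0897), where 18.9% of all genes tested were called lower and 22.2% higher. In Kit-W/sh tumors 5 of the 7 fell, Mal rose and Emp1 was not called, at -0.66 ± 0.56 (edgeR adjusted p = 0.35), where 18.8% of all genes were called lower and 20.9% higher. The list's median log2 fold change was -1.72 in Kit-B6 and -2.24 in Kit-W/sh mice, beside medians over all genes of 0.00 and 0.08. Ceacam1, an adhesion molecule of the apical surface, changed by -1.48 ± 0.24 and -1.52 ± 0.27, and Ceacam20, found on intestinal microvilli, by -1.72 ± 0.39 and -2.41 ± 0.42. Amplicons of Ceacam relatives could capture one another's reads, which was not checked here, so single Ceacam genes are uncertain. Mal was thus the 1 measured gene of this list that rose in each genotype.

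**Figure D4:**
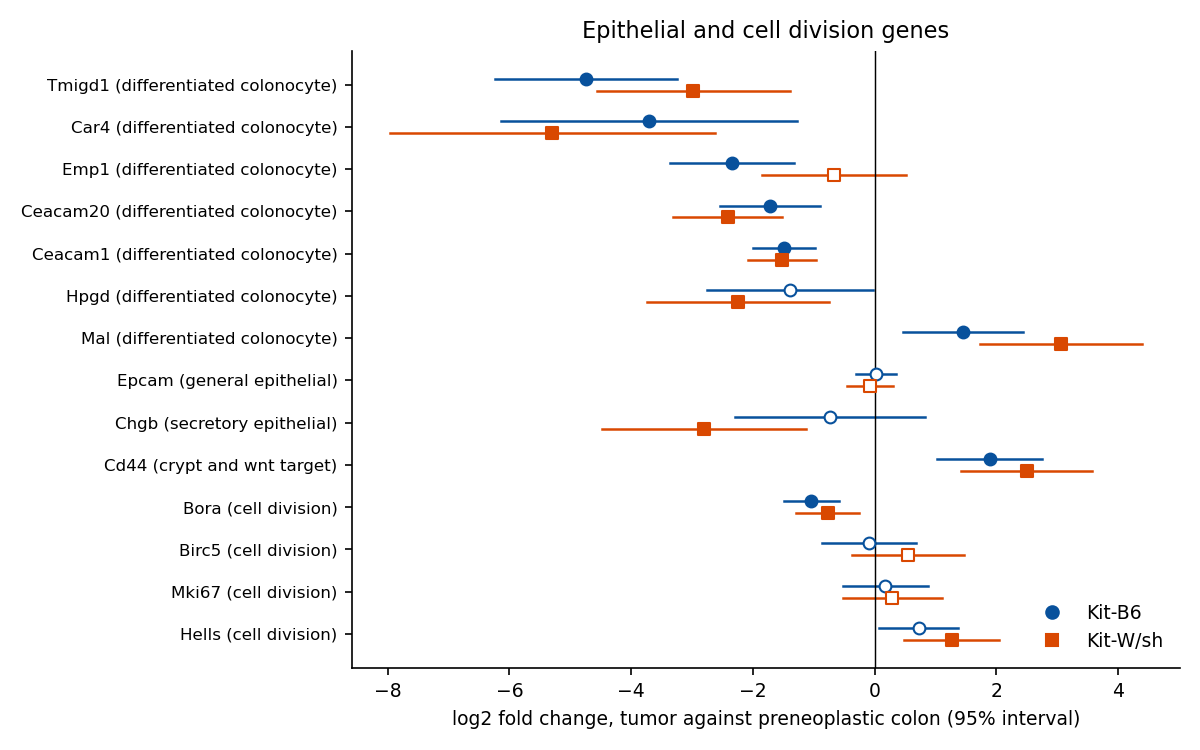
Points are log2 fold changes of tumors against preneoplastic colon with 95% intervals, for genes of the epithelial, crypt and cell division lists in Kit-B6 (circles) and Kit-W/sh mice (squares), filled where the adjusted p was under 0.05. Most colonocyte genes lie below 0, Mal lies above 0, and the interval of Epcam spans 0.

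Levels of markers of other cells are given beside these changes. For the counts called on these lists, the shares over all genes were 22.2% higher and 18.9% lower in Kit-B6 mice and 20.9% higher and 18.8% lower in Kit-W/sh mice. Cd44, the 1 measured gene of 22 listed for crypts and Wnt targets, rose by 1.89 ± 0.41 in Kit-B6 and 2.50 ± 0.51 in Kit-W/sh mice on the log2 scale (edgeR adjusted p = 0.00207 and 0.00163). The summed level of 3 fibroblast and matrix genes was 2825 to 11443 CPM in Kit-B6 tumors and 4511 to 7289 CPM in Kit-W/sh tumors, against 1718 to 3399.0 and 1684 to 3422.5 CPM in preneoplastic colon. The leukocyte sum was 470 to 1814.7 and 1145.7 to 1821.3 CPM in tumors. Of 9 measured leukocyte genes, the myeloid receptors Csf3r and Itgam rose in both genotypes, Csf1r rose in Kit-W/sh mice and Ms4a1, a B cell gene, fell in Kit-B6 mice, so 2 and 3 of the 9 were called higher, a share near that of all genes. Of the 3 matrix genes, Col3a1 and Pdgfrb rose and Fap fell in both genotypes. Chgb, a granin of enteroendocrine cells and the 1 measured secretory gene, fell by 2.80 ± 0.79 on the log2 scale in Kit-W/sh mice (edgeR adjusted p = 0.0117) and was not called in Kit-B6 mice, at -0.73 ± 0.74 (edgeR adjusted p = 0.432). The 1 endothelial gene, Kdr, and the 2 reference genes measured were not called in either genotype. Of 4 measured cell division genes, Bora fell in both genotypes and Hells rose in Kit-W/sh mice. No smooth muscle marker was on the panel. The part of these cell types in the lower Car4 and Tmigd1 was not tested.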

How the data were processed

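Per the labels' protocols, RNA of frozen colon tissue was amplified by multiplex PCR with a QIAseq immuno-oncology panel for mouse and read on a MiSeq instrument. The authors deposited 1 table of whole-number counts per library, with 993 entries, of which 5 control amplicons, at 0 in all libraries, were left out. The submitters' processing notes name build mm9 and DESeq2, with no role or version; aligner, counter and whether reads or molecular tags were counted are not given in the sources used here.

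Groups and replicate numbers came from sample titles. The labels do not say that all samples came from separate mice, and p-values then cover only the spread among these samples, which may be technical. All 34 pairs of libraries within groups differed beyond counting noise, with a chi-square per degree of freedom of 13.03 or more.

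Counts were tested in R 4.3.3 with edgeR 4.0.16 (TMM, filterByExpr with minimum count 10 and minimum total 15, robust quasi-likelihood F test, Benjamini-Hochberg over all genes tested, threshold 0.05). Stage comparisons and the interaction came from 1 fit of 17 libraries, genotype comparisons from the libraries of each stage. DESeq2 1.42.0 was an alternative. Ratios to Epcam used a pseudocount of 1 and exact permutation. Correlations used log2(CPM + 1) and 100000 resamples with scipy 1.17.1. The code was tested on simulated data. Named genes were Car4, Tmigd1, Mal and Epcam, for each the 5 most alike by Spearman rho over the tumors, and from each list up to 4 by smallest p in the Kit-B6 stage comparison; others are named where a count of 5 or fewer or a single library called for it, after their values were seen. Some genes that these rules name are not reported here. Members and lists were chosen with earlier results of these data known. Promoters are from RefSeq, GRCm38.p6; all 4 symbols matched. The motifs were chosen by factor, and amplicon positions are not used here.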

Additional observations from a re-analysis of the deposited data

Results flagged for a closer look

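The Car4 level of Kit-B6 tumor 4 was 14835.0 CPM, and its gap to the next of the 6 Kit-B6 tumors was larger than Dixon's 95% critical value allows. The library labelled Kit-W/sh tumor 2 had a Car4 level of 4787.6 CPM, which stood apart from the other 5 Kit-W/sh tumors in the same way. Both stood apart in CPM only: as log2 ratios to Epcam their gaps were 0.223 and 0.324 of the group's range, under the critical value of 0.625. Log2 CPM was not tested on its own, so these gaps do not separate the log scale from the division by Epcam. The flagged groups were 2 of 14 groups of values tested, and for normally distributed values chance flags about 1 in 20. That rate need not hold here. Car4 CPM was spread 82.3-fold within Kit-B6 tumors and 48.6-fold within Kit-W/sh tumors, and the 14 groups share libraries.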

How the results depend on the processing

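The lower Tmigd1 in tumors kept its direction and call under every alternative run in both genotypes, as did Car4 and the higher Mal in Kit-W/sh mice. In Kit-B6 mice Car4 ran from -4.92 to -2.92 when 1 library was left out, losing its call without preneoplastic sample 1, and Mal from 1.18 to 1.89, losing it without preneoplastic samples 1 or 2 and, at 1.45, in the fit of Kit-B6 libraries alone. Deviations of same-numbered samples correlated between -0.19 and 0.39 in tumors and between -0.01 and 0.40 across Kit-B6 stages. Differently numbered samples were not set beside them, so these values cannot say whether replicate numbers pair the samples. With the replicate number as a block, Mal in Kit-B6 mice was 1.24 (edgeR adjusted p = 0.0852), Epcam -0.067, and 0 genes were called between preneoplastic genotypes. It changed no other call of the 4 genes; over all genes it gave 276 calls for the Kit-B6 stages in place of 357, with 267 shared, and 250 for the Kit-W/sh stages in place of 345, with 240 shared.

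Epcam, near 0 throughout, changed sign in many settings. Leaving out 1 library it ran from -0.053 to 0.14 for the Kit-B6 stages, from -0.11 to 0.0086 between tumor genotypes and from -0.029 to 0.13 between preneoplastic genotypes. For the Kit-W/sh stages it was 0.17 with unscaled totals, 0.075 with reference genes and 0.14 with the 9 last-listed genes, a scaling added after seeing the data. Between preneoplastic genotypes it was -0.013 and -0.10 with the latter 2 scalings, for the interaction 0.048 with the last-listed genes, and between tumor genotypes 0.0060 with Kit-B6 tumors 4 and 5, whose file names share a code, summed, also added. Car4 between preneoplastic genotypes ran from -0.075 to 1.02 leaving out 1 library, turning negative without Kit-B6 sample 2 or 3, and its ratio to Epcam between tumor genotypes from -0.93 to 0.27, turning positive without Kit-B6 tumor 4 (0.26) or Kit-W/sh tumor 5 (0.27). Tmigd1 between preneoplastic genotypes ran from -3.01 to -2.01, called without Kit-B6 sample 1; DESeq2 called Tmigd1 (-2.55) and Mal (-2.07).

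Unscaled totals moved the median of all genes by 0.25 in both stage comparisons, reference genes by 0.19 and 0.17 and the last-listed genes by 0.22 in Kit-W/sh mice, by -0.15 between preneoplastic genotypes and by 0.14 in the interaction; the stage changes of Car4, Tmigd1 and Mal exceed these shifts. Higher calls made up 54.1% in Kit-B6 mice, but 73.0%, 66.1% and 62.5% under these scalings, and 52.8% in Kit-W/sh mice, but 70.1%, 61.1% and 69.8%. For Kit-W/sh stages, 345 genes were called, 180 with reference genes and 132 to 367 leaving out 1 library, with 132 and 159 without preneoplastic samples 1 and 2. DESeq2 called 21 genes between tumor genotypes where edgeR called 0. Between preneoplastic genotypes edgeR called 1, DESeq2 20, and 0 with unscaled totals, the last-listed genes or all 17 libraries in 1 fit, with 0 to 16 leaving out 1 library (16 without Kit-B6 sample 1). For the interaction DESeq2 called 1 and leaving out 1 library gave 0 to 2 (2 without Kit-B6 preneoplastic sample 1). Where an alternative changed a call the cause was not tested. Only 2 Kit-W/sh preneoplastic libraries limit both the stage and genotype comparisons, and where 1 is left out the lone sample is assumed to vary like the other groups. Tmigd1 in tumors rests on 7 to 153 counts.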
